A study of Schizosaccharomyces pombe with 130 samples.

Results

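The 59 protein-coding genes described here carry names that begin with utp, nop, noc, nog or rrp followed by a number, with rrp6 set aside, and they were picked from the 5098 protein-coding genes among 7021 listed features by name alone. The same rule also takes in 5 antisense RNAs named after members, which are described apart from the genes. Such names stand for the assembly factors of the ribosome in fission yeast (Schizosaccharomyces pombe), the snoRNA-protein particles that modify rRNA, and the RNA exosome. Among the names, rrp1 and rrp2 are annotated in RefSeq as DNA helicase or translocase genes and not as ribosome biogenesis genes, and they were kept because the rule goes by name.

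The study measured where RNA polymerase II (Pol II) sat, the RNA bound to it and the RNA that accumulated, in strains grown in rich YES medium, with no other treatment given in the labels. Mutant genotypes were the deletions of the Ccr4-Not subunits mot2Δ, caf1Δ and ccr4Δ, the strain caf1*ccr4* with point mutations in the active sites of both deadenylases, rrp6Δ (nuclear exosome exonuclease), exo2Δ (cytoplasmic 5′ to 3′ exonuclease), the heterochromatin mutants clr4Δ, swi6Δ, chp2Δ, clr3Δ, mit1Δ and ago1Δ, and the double deletions caf1Δago1Δ and caf1Δdcr1Δ. The reference was wild type, with libraries of strains 63 and 65 (63 alone in RIP, 65 alone in total RNA, input and H3K9me2). By the authors' strain list, strain 65 carries a FLAG tag on ago1 and strain 63 does not. The mutant strains also differ in mating type, marker genes, reporters and this tag. Where these differ from wild type, they cannot be told apart from the named mutation. Deletions are written with Δ here and with d in the sample labels. The libraries were 31 of Pol II ChIP, 37 of Pol II RIP (RNA bound to Pol II, both with an antibody to serine 2 phosphorylated Pol II), 32 of pA RNA, 8 of total RNA, 13 of input DNA and 9 of H3K9me2 ChIP. Most genotypes had 2 to 4 libraries per assay, mostly of 1 strain, so the p-values measure the spread between libraries, part of which may be technical. Groups of more than 1 strain were wild type in ChIP and pA RNA (strains 63 and 65), caf1Δ in ChIP and RIP (510 and 591), caf1Δago1Δ in ChIP and RIP (523 and 524) and mot2Δ in pA RNA (1022 and 1023), and in these the strain adds to the spread.

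Total counts per library ran from 2463745 to 23468602 in ChIP, from 320014 to 5935811 in RIP and from 2817056 to 22003055 in pA RNA. Deleted genes were checked by their TPM, as a percentage of the mean over libraries of all strains with the gene intact, other mutants included. In pA RNA rrp6 fell to at most 0.133% in rrp6Δ libraries, exo2 to at most 1.61% in exo2Δ, mot2 to at most 3.34% in mot2Δ and caf1 to at most 49.3% in caf1Δ. In the libraries labelled clr4Δ the clr4 level stayed at 80.2% to 113% of that mean in pA RNA. In the libraries labelled swi6Δ the swi6 level stayed at 28.6% to 56.2%. In ChIP, which has no strand, caf1 stood at 90.6% to 160% in caf1Δ and mot2 at 59% to 109% in mot2Δ, and dcr1 stood at 55.8% in the 1 RIP library of caf1Δdcr1Δ. These values did not settle the labels concerned. ChIP libraries mit1Δ replicate 3 and rrp6Δ replicate 3 were left out of the tests, since their Spearman correlation with each other replicate of their group was under 0.8.

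As background, Pol I makes a long pre-rRNA in the nucleolus, on which the small subunit processome forms. In budding yeast (Saccharomyces cerevisiae), from which most of these roles are known, the UTP-A complex binds the leading end of the transcript, followed by UTP-B and the U3 snoRNP, and Noc and Nog proteins build and export the pre-60S particle. The exosome trims rRNA and snoRNA ends and degrades faulty RNA. The mRNAs of these factors are made by Pol II, like those of ribosomal proteins, and in yeasts both groups are known to follow growth conditions.

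One member, nog2, is shown first by sequence, because it was among the members called most often and its intron carries a second RNA. The gene nog2 (SPAC6F6.03c), a GTPase of pre-60S assembly, lies on the minus strand of chromosome I at I:2734031-2736208 in the RefSeq assembly ASM294v3. Its intron of 404 bases, I:2734928-2735331, contains the snoRNA gene snR191 (SPNCRNA.499, I:2735048-2735175, 128 bases, same strand), and nog2 is the only 1 of the 59 members with a snoRNA inside it. The intron's ends and the snoRNA are given 5′ to 3′ on the coding strand, with intron bases in capitals at the splice sites and snoRNA bases in capitals in the last line.
nog2 donor: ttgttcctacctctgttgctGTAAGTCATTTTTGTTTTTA
nog2 acceptor: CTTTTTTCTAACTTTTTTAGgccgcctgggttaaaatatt
snR191: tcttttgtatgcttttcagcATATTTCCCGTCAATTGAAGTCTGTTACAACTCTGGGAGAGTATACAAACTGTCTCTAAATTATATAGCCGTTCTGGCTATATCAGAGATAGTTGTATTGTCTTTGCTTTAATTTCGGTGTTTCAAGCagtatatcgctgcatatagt
The snoRNA began 156 bases after the donor site and ended 120 bases before the acceptor. Nascent transcripts of nog2 therefore hold the snoRNA, and reads that lie within it can belong to either gene.

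Promoter windows of 4 members are shown because they hold the RRPE core (AAAATTTT), a motif known from ribosome biogenesis promoters of budding yeast. Each is the 120 bases before the annotated RefSeq start, on the gene's own strand, with the motif in capitals. The first pair, nop2 and utp23, held it at the same distance, with its first base 13 bases before the start, and both genes were among the 4 members lower in exo2Δ pA RNA. The other 5 members with the motif in their promoter were not called there, with log2 changes from -0.52 (utp22) to 0.56 (rrp14), and of the 52 members without it 2 were called lower. Of all features 574 of 5071 were called lower there. The share among all genes with the motif is not given here, and a link between motif and change was not tested.
nop2: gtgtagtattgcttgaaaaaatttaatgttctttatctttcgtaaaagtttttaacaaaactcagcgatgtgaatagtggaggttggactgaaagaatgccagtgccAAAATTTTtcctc
utp23: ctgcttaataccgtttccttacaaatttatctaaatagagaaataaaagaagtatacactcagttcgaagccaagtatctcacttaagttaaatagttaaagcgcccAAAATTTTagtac
noc12: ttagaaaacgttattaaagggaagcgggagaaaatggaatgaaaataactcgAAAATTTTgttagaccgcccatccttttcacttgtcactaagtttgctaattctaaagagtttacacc
utp502: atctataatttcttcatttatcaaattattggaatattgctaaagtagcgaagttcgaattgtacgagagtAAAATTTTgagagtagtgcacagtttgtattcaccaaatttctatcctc
These windows lie at II:3676625-3676744 (minus strand), III:1978533-1978652 (minus strand), I:3100061-3100180 (minus strand) and III:1731265-1731384 (plus strand). In windows from 250 bases before to 50 bases after the start, on either strand, AAAATTTT occurred in 7 of 59 members (11.9%) and in 7.83% of 5097 protein-coding genes. The PAC core GATGAG occurred in 4 members (6.78%) against 8.59% of all genes. The HomolD box CAGTCACA, known from ribosomal protein promoters of fission yeast, occurred in 0 of 59 members, against 2.69% of all genes and 64.1% of 131 cytoplasmic ribosomal protein genes. The first letters of the HomolE box, ACCCTACC, occurred in 1 member (rrp1402, 1.69%), against 1.63% of all genes and 30.5% of those ribosomal protein genes. The letters of both boxes, common before ribosomal protein genes, were rare in all genes, and the members were near that share.

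In wild type, members were above the typical gene in every assay. The median member had 172.1 TPM (length-scaled counts as a share of their library) in ChIP, against 149.7 TPM for all protein-coding genes. The median member had 166.7 TPM in RIP against 106.7 TPM, 137.0 TPM in pA RNA against 65.7 TPM, and 68.2 TPM in total RNA against 47.9 TPM. These medians stood at the 61.0, 70.1, 73.5 and 63.4 percentiles of protein-coding genes.

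Transcription efficiency is the ratio of RIP to ChIP TPM, and RNA stability the ratio of pA RNA to RIP TPM, both given as log2 relative to the median protein-coding gene. The median member had an efficiency of 0.33 (range over the 4 pairs of wild-type libraries 0.31 to 0.50), and 44 of 59 members lay above the median gene. The median stability was 0.44 (0.08 to 0.73 over 8 pairs), with 38 of 59 members above the median gene. Another 72 genes of the pathway, listed by name, had median values close to these, with 0.46 in efficiency and 0.48 in stability. Cytoplasmic ribosomal protein genes stood far higher, with 1.35 in efficiency and 1.83 in stability, while the 34 mitochondrial ribosomal protein genes had -0.14 and 1.35. Members were thus a little above the average gene in both ratios, and nearer to it than cytoplasmic ribosomal protein genes.

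The medians of both ratios varied by role. The 5 UTP-A genes, whose proteins bind the nascent pre-rRNA first, had a median efficiency of 0.82 and a median stability of -0.32, and the 4 UTP-B genes 0.55 and -0.91. All 9 lay above the median gene in efficiency. The opposite order was seen for the 7 exosome core genes, which had a median efficiency of -0.42 and a median stability of 0.98, with 7 of 7 above the median gene in stability. The 3 genes of the U3 and box C/D snoRNPs had medians of 0.86 and 1.32, with all 3 above the median gene in efficiency and 2 in stability, where rrp9 had -0.01. The 11 genes assigned to 60S assembly had medians of 0.57 and -0.16. Roles were assigned by name, so these 11 include rrp1, which RefSeq annotates otherwise. The 16 other 40S genes had 0.38 and 0.17, and the 10 genes without an assigned role 0.08 and 0.67. Pairs of wild-type libraries gave -0.59 to -0.08 for the exosome genes' median efficiency, against 0.55 to 0.87 for UTP-A, so the pairs of the 2 roles did not overlap. ChIP carries no strand, and 5 of the 7 exosome genes and 2 of the 5 UTP-A genes overlap another coding gene, whose polymerase is counted too. Its part in the lower efficiency was not tested.

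**Figure D1:**
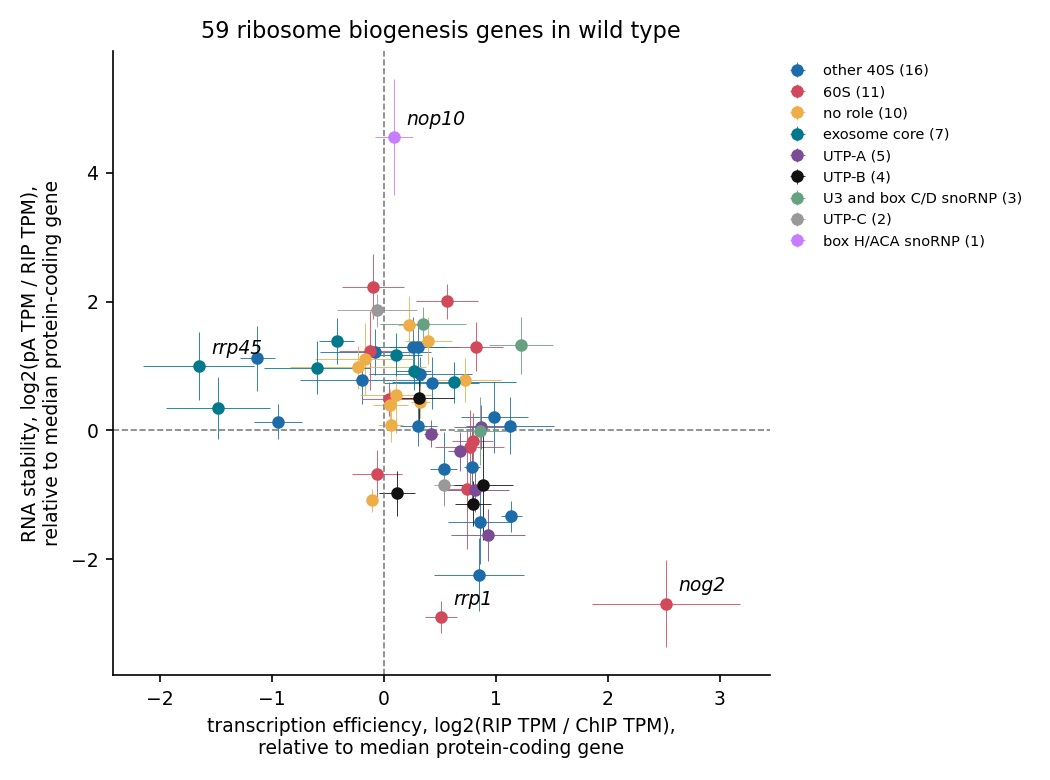
Wild-type transcription efficiency (x axis) and RNA stability (y axis) of the 59 members, both log2 ratios relative to the median protein-coding gene, coloured by role, with bars for the SD over pairs of libraries. Most members lie right of 0, the 7 exosome genes lie above 0 on the y axis, and nog2 (2.52 and -2.69) and nop10 (0.09 and 4.55) stand apart.

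Single genes spanned a wide range in wild type. Pol II occupancy was highest at nog2 (426 ± 110 TPM, SD, n = 2) and nog1 (400 ± 37.4 TPM), both GTPases of 60S assembly, and lowest at the exosome genes rrp43 (74.5 ± 14.1 TPM) and rrp41 (82.6 ± 32.9 TPM). In RIP nog2 had 1364 and 2467 TPM, ahead of nog1 with 526 ± 68.6 TPM, and rrp46 (59.02 ± 0.85 TPM) and rrp45 (59.7 ± 26.8 TPM) were lowest. In pA RNA nop10, the small H/ACA snoRNP protein, had 2007 ± 1189 TPM (n = 4) and nop58, a core box C/D protein, 721 ± 73.0 TPM. The lowest pA levels were those of rrp2 (25.4 ± 5.30 TPM) and rrp1 (27.9 ± 2.38 TPM). Efficiency was highest for nog2 (2.52 ± 0.66, SD over pairs) and nop56 (1.23 ± 0.28) and lowest for rrp45 (-1.66 ± 0.50) and rrp42 (-1.48 ± 0.46). Stability was highest for nop10 (4.55 ± 0.90) and nop16 (2.23 ± 0.50) and lowest for rrp1 (-2.89 ± 0.25) and nog2 (-2.69 ± 0.67). The same gene, nog2, thus had the highest efficiency and nearly the lowest stability, and both ratios use its RIP value. That value may hold reads of the snoRNA in its intron, whose count was 9.36% and 49.7% of the nog2 count in the 2 libraries.

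Across mutants, the share of pairs of member and mutant that were called was below that of all features in each assay with calls. With edgeR's quasi-likelihood test at an adjusted p (Benjamini-Hochberg over all features) of 0.05, 31 of 708 pairs of member and mutant were called in ChIP (4.38%, against 5.06% of all pairs of feature and mutant). In RIP 14 of 708 pairs were called (1.98%, against 2.75%), and in pA RNA 30 of 708 (4.24%, against 10.4%). In total RNA 0 of 177 pairs were called, where 0% of all features were called. There 0 members had an unadjusted p under 0.05 and DESeq2 called 0 as well. Changes in the ratios, tested by an interaction term, were called for 7 of 708 pairs in efficiency (0.989%, against 1.61%) and for 4 of 649 in stability (0.616%, against 1.68%). Of these calls, 6 of 31 in ChIP, 2 of 14 in RIP, 0 of 30 in pA RNA, 0 of 7 in efficiency and 0 of 4 in stability passed in every alternative analysis, and none of them changed sign in any.

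**Figure D2:**
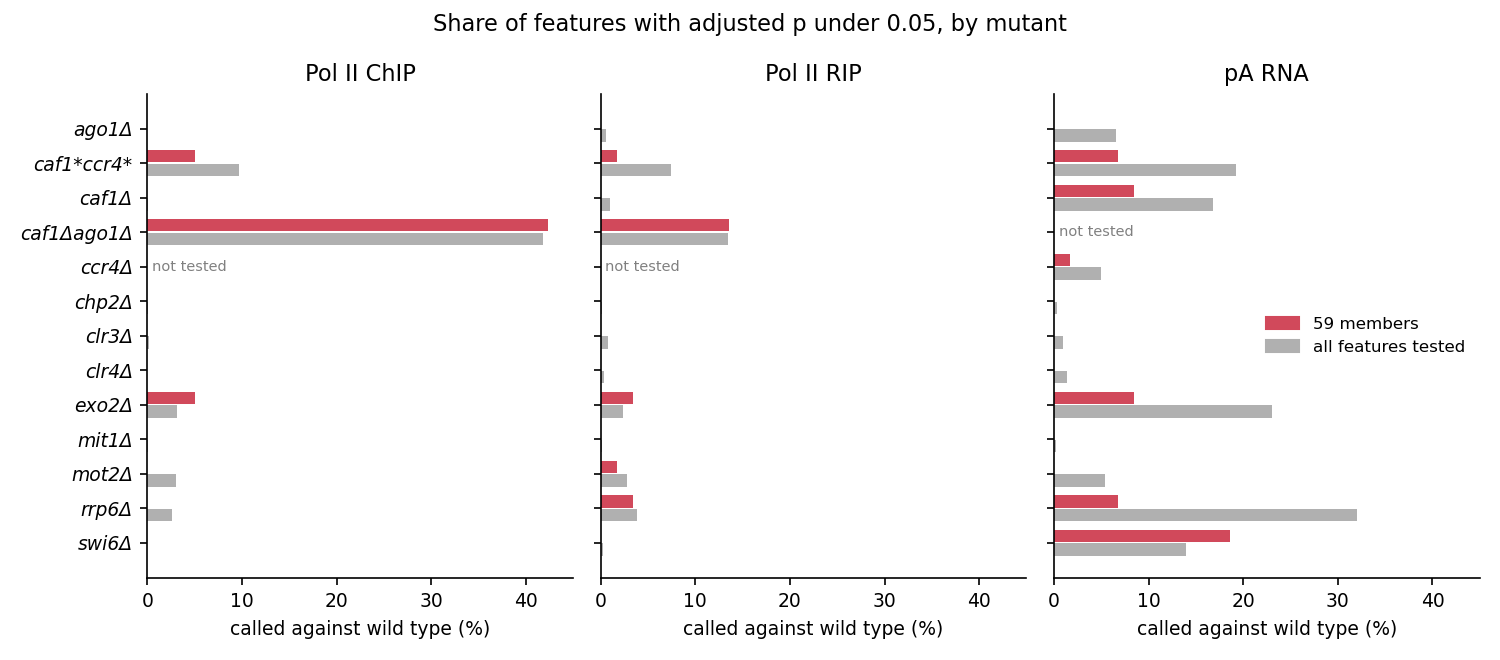
Percent of the 59 members (red) and of all features tested (grey) with an adjusted p under 0.05 against wild type, for each mutant (rows) in Pol II ChIP, Pol II RIP and pA RNA. The red bars exceed the grey ones by more than 1 point in exo2Δ ChIP, exo2Δ RIP and swi6Δ pA RNA, and fall well under them in rrp6Δ and exo2Δ pA RNA.

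Over the 39 contrasts of single assays, 16 members were never called, 22 were called once and 21 more often. The same count over all features is not given here. Of the calls, 9 higher and 16 lower came from caf1Δago1Δ ChIP, where 41.8% of all features were called. The genes nog2 and rrp1 were called in 4 contrasts each, and noc1, rrp14, rrp16, rrp2, utp11, utp16 and utp25 in 3 each.

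The nascent RNA of nog2 was lower in the Ccr4-Not mutants caf1*ccr4* and mot2Δ. In caf1*ccr4* RIP it had 575 and 515 CPM (counts scaled to library size with TMM factors, used here to compare 1 gene between libraries), against 1182 and 2393 CPM in wild type. In mot2Δ the 4 libraries had 521, 897, 766 and 821 CPM, in caf1Δ 779 and 532 CPM and in the single ccr4Δ library 502 CPM. All these libraries were below both wild-type libraries. The log2 change was -1.71 (SE 0.40, adjusted p = 0.00981) in caf1*ccr4*, where nog2 was the 1 member of 59 called in RIP (all features 7.4%). It was -1.25 (SE 0.33, adjusted p = 0.0328) in mot2Δ, again the 1 member called in RIP (all features 2.79%). In caf1Δ it was -1.44 (SE 0.40, adjusted p = 0.0825), which missed the threshold. Both calls were lost without wild-type RIP replicate 2 (adjusted p up to 0.203 in caf1*ccr4* and 0.657 in mot2Δ over the alternatives), without caf1*ccr4* replicate 1, and without any of mot2Δ replicates 2, 4 and 5, each for its own contrast.

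Over all genotypes with a Ccr4-Not mutation, the double deletions caf1Δago1Δ and caf1Δdcr1Δ included, 13 RIP libraries had 502 to 1084 CPM of nog2. The 22 libraries of the other mutants had 1035 to 3674 CPM, so these groups overlapped between 1035 and 1084 CPM. Pol II occupancy at nog2 passed no test in caf1*ccr4*, caf1Δ and mot2Δ, with ChIP log2 changes of -0.06 (SE 0.32), 0.06 (SE 0.32) and 0.06 (SE 0.32). The efficiency changes of nog2 were -1.66 (SE 0.54, adjusted p = 0.117), -1.50 (SE 0.54, adjusted p = 0.917) and -1.29 (SE 0.50, adjusted p = 0.624) in those strains and passed no test. In caf1Δago1Δ, however, nog2 was called lower in ChIP (-1.30, SE 0.33, adjusted p = 0.00521). The limits of those ChIP libraries are given further below.

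In pA RNA nog2 was higher in caf1Δ. It had 604 and 476 CPM in caf1Δ, against 424, 238, 258 and 288 CPM in wild type, a log2 change of 0.84 (SE 0.27, adjusted p = 0.0351). In caf1*ccr4* it had 353 and 339 CPM, a change of 0.20 (adjusted p = 0.651). The ratio of pA RNA to RIP therefore rose, by 1.94 (SE 0.50, adjusted p = 0.0118) in caf1*ccr4* and by 2.33 (SE 0.50, adjusted p = 0.0268) in caf1Δ. Both calls were lost without wild-type RIP replicate 2 (adjusted p up to 0.173 and 0.849 over the alternatives). In mot2Δ the value was 1.497 (SE 0.46, adjusted p = 0.0987).

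The snoRNA inside nog2 varied along with it in RIP. It had 1055 and 871.5 TPM in caf1*ccr4* and 551 to 4514 TPM in mot2Δ, against 1868 and 17940 TPM in wild type, so the mot2Δ libraries overlapped the lower wild-type one. Over the 37 RIP libraries the TPM of nog2 and snR191 had a Pearson r of 0.89 and a Spearman rho of 0.85, given as a description, since the 2 genes share each library and may share reads. The count of snR191 equalled 9.36% and 49.7% of the nog2 count in wild-type RIP replicates 1 and 2. It was 10.4% and 9.41% in caf1*ccr4*, 11.8% and 4.96% in caf1Δ and 6.08% to 30.7% in mot2Δ. The sources used here do not say whether reads inside the snoRNA were counted to nog2 too, so the share of the nog2 change that lies in the snoRNA was not tested.

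**Figure D3:**
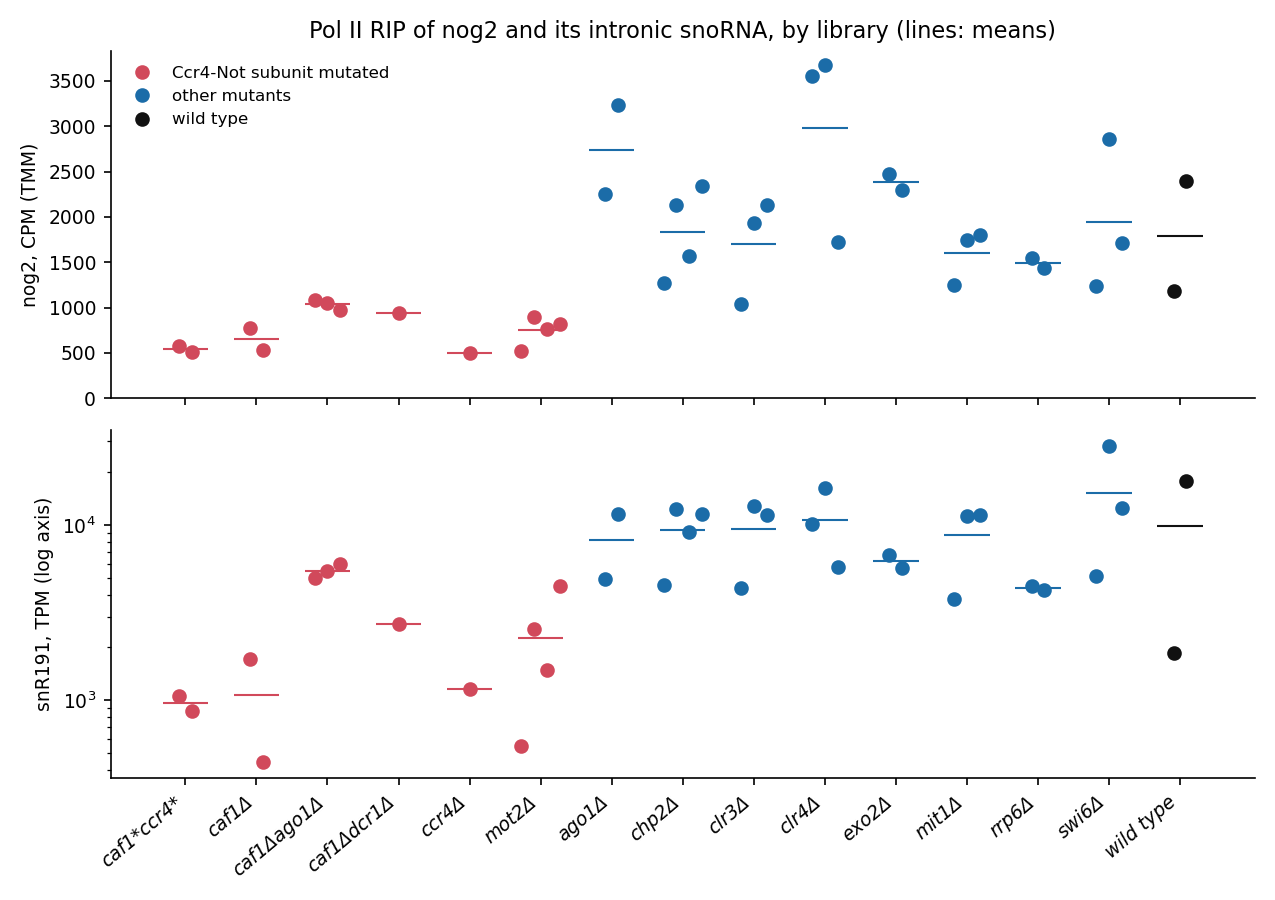
RIP level of nog2 (upper panel, CPM after TMM scaling) and of its intronic snoRNA snR191 (lower panel, TPM on a log axis) in each of 37 libraries, by genotype, with lines for the means. The 13 libraries with a Ccr4-Not mutation (red, 502 to 1084 CPM) lie below both wild-type libraries (black, 1182 and 2393 CPM) and reach just into the range of the other mutants (blue, 1035 to 3674 CPM).

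Other members changed in few cases in the Ccr4-Not mutants caf1*ccr4*, caf1Δ, ccr4Δ and mot2Δ. The double deletion caf1Δago1Δ, with more calls, is described further below. In caf1*ccr4* ChIP 3 members were higher and 0 lower (all features 9.7% called). These were the exosome gene rrp45 (445 and 411 CPM, against 213 and 194 CPM in wild type, log2 change 1.11, SE 0.31, adjusted p = 0.031), the 40S factor nop14 (0.50, adjusted p = 0.0177) and rrp2 (0.37, adjusted p = 0.0472). The gene rrp45 overlaps rnc1, whose ChIP value was 0.43 (adjusted p = 0.421), and rrp45 had 0.16 in RIP (adjusted p = 0.865). The rrp45 call was lost without either wild-type ChIP library (adjusted p up to 0.139 over the alternatives).

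In caf1*ccr4* pA RNA 2 members were higher and 2 lower (all features 19.3% called). The 40S factor utp11 had 281 and 299 CPM, against 157 to 200 CPM in the 4 wild-type libraries (0.76, SE 0.22, adjusted p = 0.0199). The exosome cap gene rrp40 had 228 and 198 CPM against 101 to 161 CPM (0.71, SE 0.20, adjusted p = 0.0161). Lower were the 40S factor utp25, with 131 and 117 CPM against 160 to 252 CPM (-0.81, SE 0.21, adjusted p = 0.0103), and the exosome ring gene rrp43, with 60.1 and 61.6 CPM against 74.7 to 108 CPM (-0.57, SE 0.18, adjusted p = 0.0277). No wild-type library overlapped the mutant ones for these 4 genes. The stability of rrp43 fell by 1.31 on the log2 scale (SE 0.30, adjusted p = 0.0051), and with nog2 it made up the 2 members called in caf1*ccr4* stability (all features 8.74%). Efficiency had 0 calls among members (all features 1.12%), with values between -1.66 (nog2) and 1.01 (rrp4, adjusted p = 0.0872).

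In caf1Δ pA RNA 4 members were higher and 1 lower (all features 16.8% called). They were nog2, utp11 (0.76, adjusted p = 0.0206), rrp40 (0.68, adjusted p = 0.0219), the 40S factor utp16 (0.67, adjusted p = 0.0355) and, lower, utp25 (-0.70, adjusted p = 0.0244). The caf1*ccr4* and caf1Δ comparisons share their wild-type libraries. In ccr4Δ pA RNA utp11 alone was called, with 275 and 305 CPM against 157 to 200 CPM (0.76, adjusted p = 0.0462, all features 4.99%). The caf1Δ strain had 0 members called in ChIP (all features 0.0982%), where values ran from -0.33 (noc12) to 0.45 (nop14). It had 0 in RIP (all features 0.95%), from -1.44 (nog2) to 0.60 (utp16), and 0 in efficiency (all features 0.0393%). In stability it had 1 call, nog2 (all features 0.591%). In mot2Δ ChIP 0 members were called (all features 3.02%), with values from -0.48 (utp16) to 0.61 (rrp36). In mot2Δ pA RNA 0 were called (all features 5.44%), with values from -0.48 (nop10) to 0.68 (utp20). Efficiency (all features 0.0982%) and stability (all features 0.689%, members from -1.20 for nop10 to 1.497 for nog2) had 0 calls as well.

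Many cytoplasmic ribosomal protein genes were lower in these strains. In pA RNA 61 of 131 of them were lower in caf1*ccr4* and 70 in caf1Δ, with median log2 changes of -1.02 and -1.07. The medians over members were -0.11 and 0.16, and over all features -0.06 and -0.01. As a ratio of mean TPM, without TMM factors, the median of all protein-coding genes was itself 0.31 in caf1*ccr4* and 0.40 in caf1Δ, that of members 0.25 and 0.57 and that of cytoplasmic ribosomal protein genes -0.65 in both. The sign of the caf1*ccr4* member median thus depends on the scaling, while members stayed below the median of all genes in caf1*ccr4* and above it in caf1Δ. The other 72 pathway genes had 1 higher and 5 lower in caf1*ccr4* and 4 higher and 4 lower in caf1Δ.

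The rrp6Δ strain lacks the nuclear exonuclease that works with the exosome core, and of the 7 core genes only rrp46, a subunit of the ring, was called. In RIP rrp46 had 109 and 114 CPM in rrp6Δ, against 54.8 and 60.2 CPM in wild type. The 33 RIP libraries of the other mutants had 48.7 to 101 CPM, so the rrp6Δ libraries were above every other RIP library. The log2 change was 0.96 (SE 0.17, adjusted p = 0.000959), and it passed in 9 of 9 alternative analyses. In pA RNA rrp46 had 153 and 163 CPM in rrp6Δ, within the 127 to 204 CPM of wild type (-0.09, adjusted p = 0.735). Its stability accordingly fell by 0.98 on the log2 scale (SE 0.24, adjusted p = 0.0067), the 1 member called in rrp6Δ stability (all features 7.17%), while its ChIP value was 0.38 (adjusted p = 0.148) and its efficiency 0.60 (adjusted p = 0.236). The stability call was lost without wild-type RIP replicate 1 (adjusted p up to 0.179 over the alternatives).

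The gene rrp46 (II:639332-641343) overlaps SPBC947.15c on the same strand at its 3′ end and lies next to afg1. In rrp6Δ RIP those neighbours had 0.24 (afg1, adjusted p = 0.674) and -0.03 (SPBC947.15c, adjusted p = 0.961), neither of which passed the test. The other 6 core genes had RIP values from -0.01 (rrp45) to 0.52 (rrp4, adjusted p = 0.161). In ChIP they had -0.13 (rrp40) to 0.62 (rrp43, adjusted p = 0.237), and in pA RNA -0.35 (rrp42) to 0.46 (rrp45, adjusted p = 0.0843).

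Beyond the core, rrp1 was lower in rrp6Δ RIP, with 405 and 409 CPM against 634 and 710 CPM in wild type (-0.72, SE 0.20, adjusted p = 0.0352), so 2 of 59 members were called there (all features 3.88%). The rrp1 call was lost without any 1 of these 4 libraries (adjusted p up to 0.248 over the alternatives). In pA RNA, where 32% of all features were called, 4 members were. Higher were utp16 (211 and 203 CPM against 97.9 to 156 CPM, 0.60, adjusted p = 0.0355) and rrp2 (134 and 137 CPM against 87.1 to 121 CPM, 0.41, adjusted p = 0.0395). Lower were nop56, a box C/D core protein (484 and 476 CPM against 567 to 1331 CPM, -0.96, adjusted p = 0.0258), and the 60S factor nop4 (118 and 127 CPM against 155 to 427 CPM, -0.95, adjusted p = 0.0466). For nop56 and nop4 the wild-type libraries themselves spread over more than the change. Of the cytoplasmic ribosomal protein genes 84 of 131 were lower in the same libraries, with a median of -1.17, while the member median was -0.05 and that of all features -0.03. As a ratio of mean TPM these medians were -0.94, 0.17 and 0.21 (all protein-coding genes), so the sign of the member median depends on the scaling. Among members 0 were called in rrp6Δ ChIP (all features 2.63%) and 0 in efficiency (all features 0.707%), where values ran from -0.86 (rrp36) to 0.69 (nop2).

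In exo2Δ the 2 members called higher in ChIP and RIP lie in 1 stretch of chromosome I that had more input DNA. In ChIP rrp16 had 313 and 320 CPM in exo2Δ, against 134 and 135 CPM in wild type, a log2 change of 1.25 (SE 0.11, adjusted p = 2.24e-06). The 60S factor noc1 had 707 and 649 CPM, against 329 and 277 CPM (1.17, SE 0.14, adjusted p = 3.65e-05). With the 40S factor noc4, lower at 167 and 149 CPM against 282 and 241 CPM (-0.72, SE 0.19, adjusted p = 0.0403), 3 of 59 members were called (all features 3.14%). In RIP rrp16 (286 and 237 CPM against 127 and 117 CPM, 1.10, adjusted p = 0.000646) and noc1 (839 and 652 CPM against 423 and 421 CPM, 0.82, adjusted p = 0.00187) were the 2 members called (all features 2.34%). In pA RNA noc1 rose too (891 and 665 CPM against 283 to 587 CPM, 0.89, adjusted p = 0.00781).

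Input DNA showed the stretch directly. Over I:4716550-4897027, 180.478 kb with 83 genes, the exo2Δ input had a median of 1.93 times the median of the other strains (10th to 90th percentile of genes 1.75 to 2.14), against 0.97 on the rest of chromosome I. For noc1 the input was 420 TPM in exo2Δ and 194 to 220 TPM in the 12 other strains, and for rrp16 it was 401 TPM in exo2Δ and 149 to 239 TPM in the others. All 83 genes together had median log2 changes in exo2Δ of 1.11 in ChIP, 1.03 in RIP and 0.91 in pA RNA, against -0.01, 0.01 and -0.06 outside. Less the log2 input ratio of 1.02, the ChIP changes were 0.15 for noc1 and 0.23 for rrp16, the RIP changes -0.20 and 0.08, and the pA RNA changes -0.13 and -0.52. All exo2Δ libraries come from strain 530, so the deletion and this stretch cannot be told apart, and there is 1 exo2Δ input library. Other inputs held such genes too, with 181 genes above 1.5 times the other strains in ago1Δ and 47 in caf1Δ, against 114 in exo2Δ. In ago1Δ 1 of them was a member, nop10 (2.31 times), and in caf1Δ the lowest member was nop16 (0.615 times). Neither gene was called in the ChIP, RIP or pA RNA of that strain. In ChIP, however, 0 of 5092 features were called in ago1Δ and 0.0982% in caf1Δ, so the lack of a call there says little. In ago1Δ ChIP nop10 had 44.3 and 75.3 CPM, against 30.9 and 34.3 CPM in wild type. In caf1Δ ChIP nop16 had 64.3 and 63.3 CPM, against 61.4 and 58.5 CPM. The part of DNA amount in these values was not tested.

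**Figure D4:**
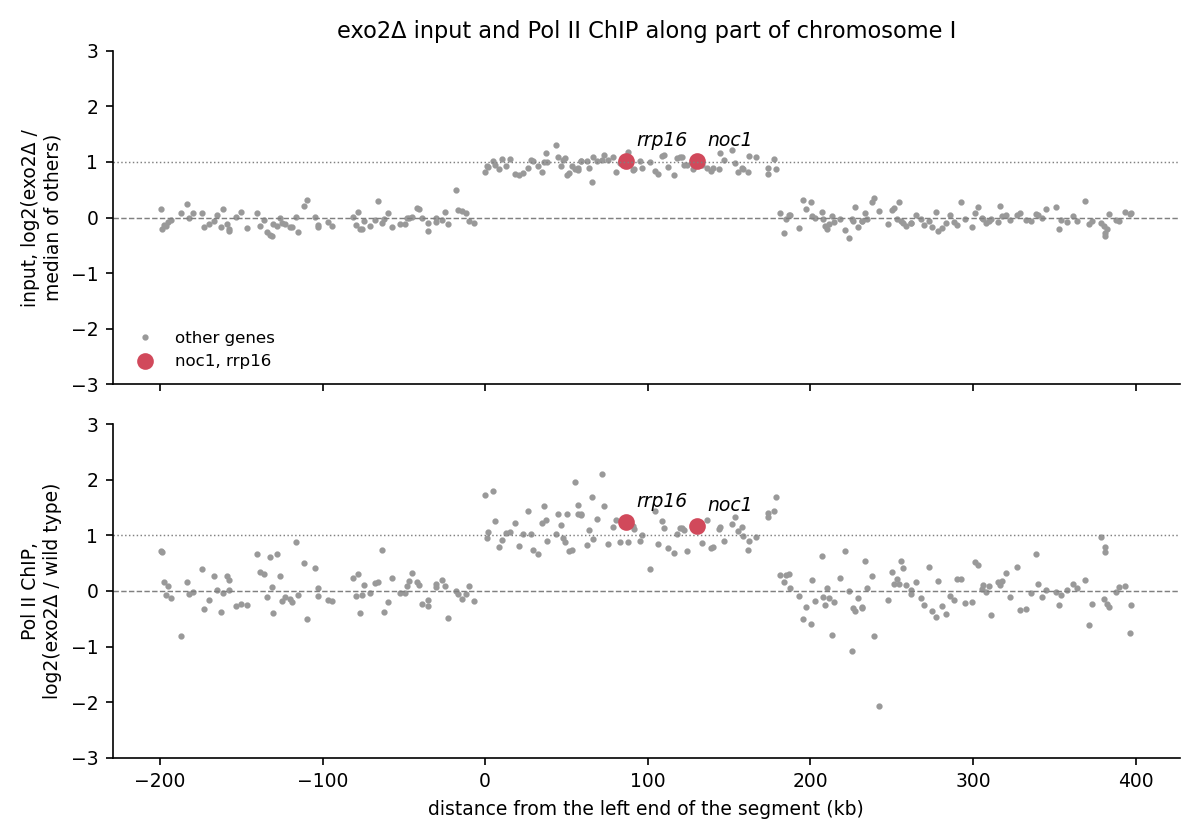
Each point is a gene of chromosome I, by its distance in kb from the left end of the stretch, with log2 of the exo2Δ input over the median of other strains (upper panel) and the log2 change of Pol II ChIP in exo2Δ against wild type (lower panel). Both panels step up to about 1 within the stretch of 180.478 kb, where noc1 and rrp16 (red) lie at 1.02 in input and at 1.17 and 1.25 in ChIP.

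Outside that stretch 4 members were lower in exo2Δ pA RNA, where 23.1% of all features were called. The UTP-B gene utp18 had 40.1 and 33.8 CPM in exo2Δ, against 168, 129, 53.0 and 41.7 CPM in wild type (-1.41, SE 0.51, adjusted p = 0.0476). The gene nop2, an rRNA methyltransferase of the 60S subunit, had 183 and 158 CPM, against 526, 379, 282 and 276 CPM (-1.10, SE 0.33, adjusted p = 0.0213). The 40S factor utp23 had 102 and 89.8 CPM against 167 to 235 CPM (-0.96, SE 0.29, adjusted p = 0.0223), and the UTP-A gene utp8 106.5 and 90.9 CPM against 146 to 268 CPM (-0.93, SE 0.27, adjusted p = 0.0165). The groups did not overlap for any of the 4, though for utp18 the nearest libraries were 40.1 and 41.7 CPM. The promoter windows of nop2 and utp23 are among those printed earlier. Among the 72 other pathway genes 3 were higher and 8 lower. The median member change was -0.26, against -0.07 for all features, with 15 of 59 members above 0. In efficiency (-0.81 for rrp15 to 0.64 for noc4, all features 0.0786%) and stability (-1.16 for utp18 to 1.12 for utp24, all features 0.807%) 0 members were called.

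Beyond the mutants described so far, most calls fell in swi6Δ and in the double deletion caf1Δago1Δ, which also lacks the Ccr4-Not subunit Caf1. In each of them other libraries bear on the result. In caf1Δago1Δ ChIP 9 members were higher and 16 lower (all features 41.8% called). The nog genes fell most, nog2 with 193 and 183 CPM against 550 and 376 CPM in wild type (-1.30, SE 0.33, adjusted p = 0.00521) and nog1 with 224 and 230 CPM against 528 and 458 CPM (-1.12, SE 0.26, adjusted p = 0.00343). Single libraries of other mutants had similar levels, shown for nog1, which was chosen after its values were seen. In replicate 3 of chp2Δ, mit1Δ and rrp6Δ, nog1 had 231, 234 and 228 CPM, while replicates 1 and 2 of those mutants had 443 to 599 CPM. The median of the 16 lower members, relative to wild type, was -0.67 and -0.60 in caf1Δago1Δ and -0.59, -0.65 and -0.70 in those 3 libraries, of which the last 2 were left out of the tests. The median of the 9 higher members was 0.63 and 0.66 in caf1Δago1Δ and 0.54, 0.59 and 0.58 in those 3 libraries. Both sets were picked by their calls in caf1Δago1Δ, so the values in that strain itself follow from the choice. The median over cytoplasmic ribosomal protein genes was -1.27 to -1.59 in the same 5 libraries and -0.27 to 0.68 in all others. A property of these libraries and the double deletion cannot be told apart here. Without wild-type ChIP replicate 1, 8 pairs of member and mutant were called in ChIP over all mutants, against 31 with it. The caf1Δago1Δ efficiency calls, 4 members higher and 3 lower (all features 17%), use the same ChIP libraries.

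In caf1Δago1Δ RIP, which rests on 3 other libraries, 4 members were higher and 4 lower (all features 13.5%). The helicase gene rrp1 had 241, 275 and 271 CPM, against 634 and 710 CPM in wild type (-1.35, SE 0.18, adjusted p = 1.2e-05), and passed in 7 of 7 alternative analyses. The other 7 are named after their values were seen. Higher were nop10 (1.13, adjusted p = 0.014), nop16 (0.96, adjusted p = 0.0307), rrp14 (0.77, adjusted p = 0.0353) and rrp16 (0.55, adjusted p = 0.0327), and lower were noc3 (-0.64), utp4 (-0.60) and utp8 (-0.57). All 7 calls were lost without wild-type RIP replicate 1, and those of nop10, rrp14, rrp16 and utp4 also without replicate 2 (adjusted p up to 0.324 over the alternatives). An input library of caf1Δago1Δ was not analysed here, and the part of DNA amount in the nop10 call, 2.31 times in the ago1Δ input, was not tested.

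In swi6Δ pA RNA 11 members were higher (6.78% of all features were called higher and 13.9% in either direction) and 0 lower. The 60S factor rrp14 had 695, 480 and 379 CPM in the libraries labelled swi6Δ, against 268, 233, 249 and 307 CPM in wild type (0.97, SE 0.22, adjusted p = 0.0101). The 40S factor utp16 had 306, 220 and 187 CPM against 97.9 to 156 CPM (0.80, SE 0.19, adjusted p = 0.0132), and rrp1 had 209, 118 and 126 CPM against 88.0 to 114 CPM (0.59, SE 0.18, adjusted p = 0.0324). The groups did not overlap, but replicate 1 was highest for all 3 genes. Over the 59 members its median was 0.79 on the log2 scale, against 0.05 and 0.06 in replicates 2 and 3. Without replicate 1, 0 members were called, and without replicate 3, 17 were. The counts over all features in these fits are not given here, so the difference cannot be read as a trait of the members. Of the 72 other pathway genes 15 were higher and 1 lower.

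Members varied together between pA RNA libraries, also within genotypes. The median over members per library, relative to wild type, ranged from -0.38 to 0.79 in pA RNA, against -0.14 to 0.19 in ChIP and -0.31 to 0.20 in RIP. It followed the median of the 72 other pathway genes, with a Pearson r of 0.97 over 32 pA libraries, 0.91 over 29 ChIP libraries and 0.90 over 37 RIP libraries. With the cytoplasmic ribosomal protein genes r was 0.51 in pA RNA, 0.59 in ChIP, -0.02 in RIP and -0.68 over 8 total RNA libraries. These are descriptions over libraries that include replicates. Pairs of members, after each genotype's mean was taken out, had a median r of 0.44 in pA RNA, with 82.6% of pairs positive. Pairs of all genes had a median near 0 there, and pairs of members had 0.11 in ChIP and 0.06 in RIP.

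The member medians by mutant were small beside this. In pA RNA they ran from -0.26 in exo2Δ to 0.29 in clr3Δ, where 54 of 59 members were above 0 and 0 were called (all features 0.947%). This order depends on the scaling, since as a ratio of mean TPM the highest were 0.57 in caf1Δ and 0.48 in mot2Δ, where all protein-coding genes had 0.40 and 0.26, and clr3Δ had 0.21, where all had -0.13. In clr3Δ the 2 libraries had 0.30 and 0.33, and in mit1Δ 51 of 59 members were above 0 with a median of 0.18. The wild-type libraries themselves had 0.38, -0.13, -0.12 and -0.14, so wild-type replicate 1 lay above both clr3Δ libraries. In total RNA the libraries numbered 1 stood above those numbered 2 in each mutant, with 0.78 against 0.19 in caf1Δ, 0.38 against -0.19 in ago1Δ and 0.66 against -0.29 in the libraries labelled clr4Δ, while the wild-type libraries, numbered 2 and 3, had -0.20 and 0.20. The cytoplasmic ribosomal protein genes had -1.40 to -1.76 in the mutant libraries numbered 1. The largest member change in caf1Δ total RNA was 1.44 (rrp4, adjusted p = 0.998).

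**Figure D5:**
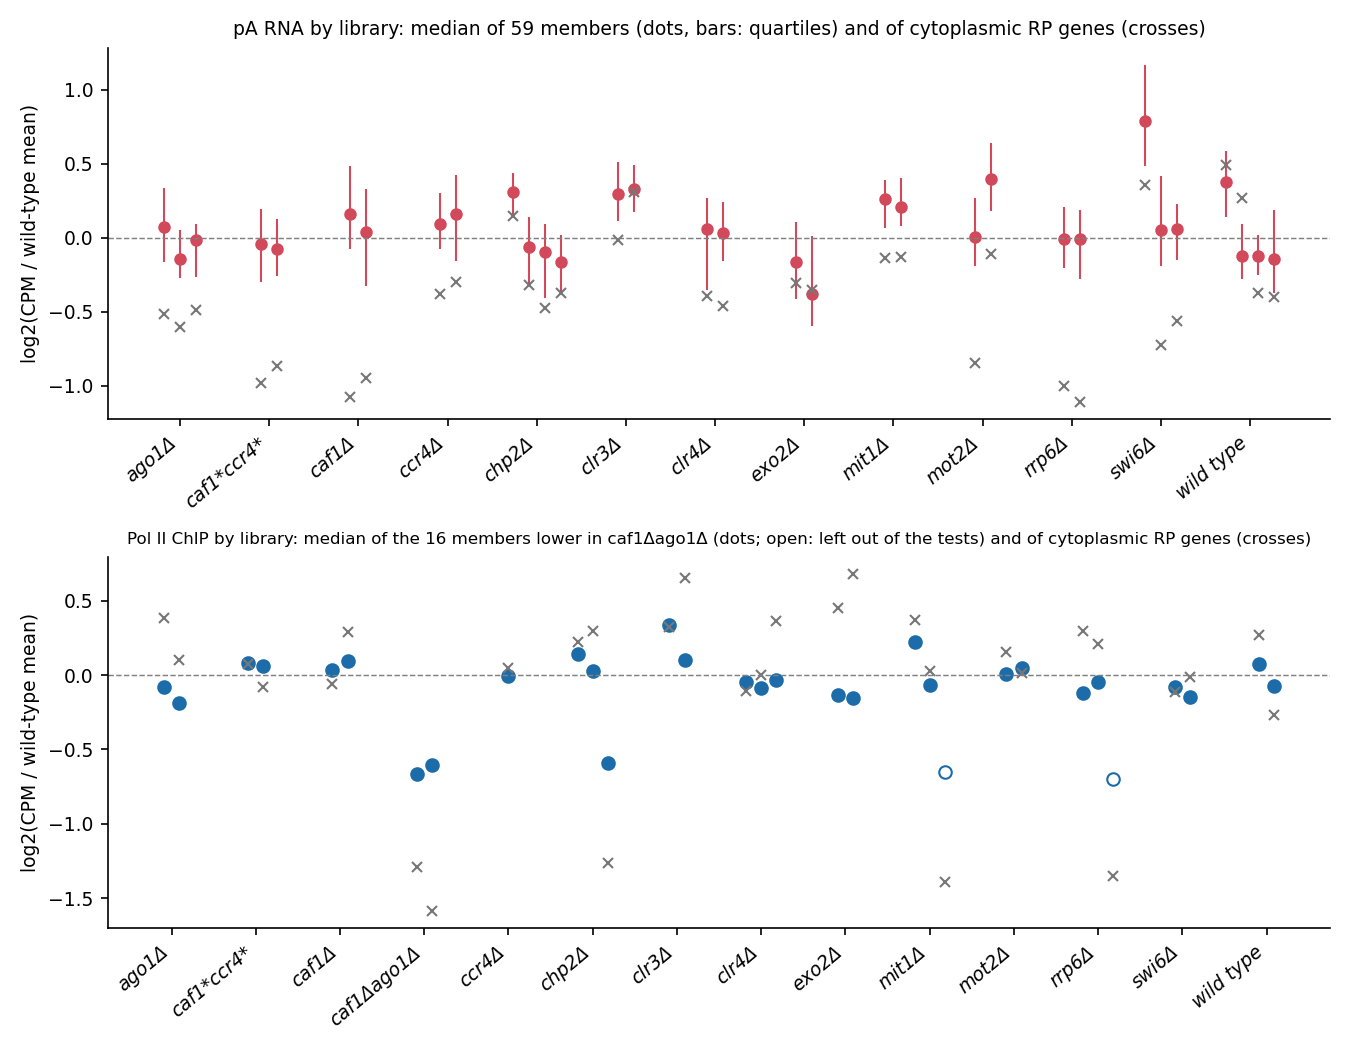
Upper panel, median log2 level of the 59 members (dots, bars for quartiles) and of cytoplasmic ribosomal protein genes (crosses) in each pA RNA library relative to the wild-type mean, by genotype. Lower panel, the same for Pol II ChIP and the 16 members lower in caf1Δago1Δ (open dots, libraries left out of the tests). In pA RNA swi6Δ replicate 1 (0.79) and wild-type replicate 1 (0.38) stand above their groups. In ChIP 5 libraries of 4 genotypes lie between -0.59 and -0.70, those of caf1Δago1Δ by the choice of these 16 members.

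Among the 5 antisense RNAs 2 calls were made in pA RNA, named here after their values were seen. The RNA antisense to rrp1 had 25.1, 13.2 and 2.65 CPM in the libraries labelled swi6Δ, against 1.46 to 2.95 CPM in wild type (log2 change 2.67, SE 0.53, adjusted p = 0.0069), and replicate 3 lay within the wild-type range. In swi6Δ replicate 2 and chp2Δ replicate 2 the other 4 antisense RNAs were high, those to utp23 with 58.2 and 47.2 CPM, utp5 with 61.0 and 43.7 CPM, utp4 with 56.2 and 47.0 CPM and nop12 with 15.7 and 14.1 CPM. In swi6Δ replicate 1, where the RNA antisense to rrp1 was highest, those to utp23, utp5, utp4 and nop12 had 16.3, 7.15, 2.20 and 0.18 CPM. In the 30 other libraries none of these 4 RNAs was above 34.1 CPM, and the part of this library difference in the call was not tested. The RNA antisense to utp23 had 3.65 and 2.96 CPM in caf1*ccr4*, against 7.31 to 17.6 CPM in wild type (-1.97, SE 0.66, adjusted p = 0.04).

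The members were not enriched in H3K9me2, the mark of heterochromatin. The median member had 1.02 times the median gene in wild-type H3K9me2 ChIP and 1.04 to 1.11 times in the 8 mutants. These values come from a single library per genotype and were not divided by input. The centromeric repeats dg and dh had 5920 and 4480 times in wild type, 52.9 and 58.5 times in ago1Δ and 501 to 7860 times in the other mutants. Reads from all copies of these repeats were counted to a representative copy, which raises their values. The highest single member was noc1 in exo2Δ with 2.66 times, which lies in the stretch with 2.03 times the input, and in the other 8 libraries no member was above 1.72 times.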

How the data were processed

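Reads were aligned by the authors with STAR 2.7.3a (ChIP unspliced), rRNA reads were removed, and reads per feature were counted with a script that extends HTSeq, by strand except for ChIP. The deposited values used here are these raw counts. Coordinates and sequences are those of RefSeq ASM294v3, and the authors' assembly version is not given in the sources used here.

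Protein-coding genes, the 5 antisense RNAs and heterochromatic features were kept where 2 or more libraries had 10 or more counts (heterochromatic ones in any case), and were tested with edgeR 4.0.16 in R 4.3.3 (quasi-likelihood, TMM, genotype as the term, 1 fit per assay over all genotypes), with Benjamini-Hochberg adjustment over all features and a threshold of 0.05. Efficiency and stability changes were interactions of assay and genotype over RIP with ChIP and pA RNA with RIP. Genotypes with 1 library were not tested. TPM used feature lengths, and CPM used TMM factors. In groups of 3 or more, ChIP libraries whose Spearman correlation with every other replicate was under 0.8 were left out (2 libraries). DESeq2 1.42.0, other scalings and filters, a replicate block and leaving out each library were alternatives. In total RNA all 9 correlations between the deviations of same-numbered libraries were over 0.1 (0.234 to 0.84), which pairs those libraries. The blocked fit left its calls at 0. The fits were tested on simulated data.

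Members and lists were chosen with earlier results of these data known. Named genes were the 3 highest and 3 lowest called per assay in the RNA decay mutants, or the extremes where none was called, the members called most often, the wild-type extremes and the exosome genes in rrp6Δ.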

Additional observations from a re-analysis of the deposited data

Results flagged for a closer look

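Dixon's test was run on 22 sets of values, each a median over members or the level of a chosen member across 4 libraries. The libraries were those of wild-type and chp2Δ pA RNA and of mot2Δ and chp2Δ RIP. Chance marks about 1 in 20 of independent sets, but these sets share libraries, and the medians include the chosen members. In 2 sets a library was set apart from the rest, and both times it was wild-type pA RNA replicate 1. Its median over the 59 members was 0.378 on the log2 scale, against -0.126, -0.124 and -0.143 in wild-type replicates 2, 3 and 4. Its nog2 level was 268.1 TPM, against 158.7, 163.4 and 171.9 TPM in those replicates.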

How the results depend on the processing

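The numbers of members called depended on which libraries entered the fit. In ChIP 31 calls became 16 with the 2 left-out libraries put back, and leaving out single libraries gave 8 (without wild-type replicate 1) to 38. In RIP 14 became 9 with only the mutant and wild type fitted, and 7 (without wild-type replicate 2) to 22 without single libraries. In pA RNA 30 became 0 with only the mutant and wild type fitted, and 17 (without wild-type replicate 2) to 54 (without wild-type replicate 4) without single libraries. In efficiency 7 became 3 with the left-out ChIP libraries put back and 4 with only the mutant and wild type fitted, and 1 (without wild-type ChIP replicate 1 or RIP replicate 1) to 13 without single libraries. In stability 4 became 0 with only the mutant and wild type fitted and 10 with DESeq2, and 2 (without wild-type RIP replicate 2) to 15 (without wild-type pA RNA replicate 4, or without swi6Δ replicate 3, chosen after seeing the data). Fits of 1 mutant with wild type have fewer libraries behind the spread. The cause of the other shifts was not tested. With the replicate block the calls were 38 in ChIP, 20 in RIP, 53 in pA RNA, 9 in efficiency, 6 in stability and 0 in total RNA. Outside total RNA the same-numbered libraries shared only a number (median correlations 0.0392 in ChIP, 0.00967 in RIP and 0.0119 in pA RNA).

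The median member change in pA RNA was 0.286 in clr3Δ, where it was 0.21 as a ratio of mean TPM and 0.234 to 0.426 without single libraries. It was 0.147 to 0.352 in mit1Δ, 0.131 to 0.464 in swi6Δ and -0.392 to -0.107 in exo2Δ without single libraries, with both 0.352 and -0.107 reached without wild-type replicate 1. In caf1Δ it was 0.159, with 0.571 as a ratio of mean TPM and 0.0554 (without wild-type replicate 4) to 0.262 (without replicate 1). In 2 mutants it changed sign. In caf1*ccr4* it was -0.109, with 0.251 as a ratio of mean TPM and -0.165 to 0.0681 (without wild-type replicate 1) without single libraries. In rrp6Δ it was -0.0486, with 0.174 as a ratio of mean TPM, -0.0351 with DESeq2's scaling and -0.106 to 0.108 (without wild-type replicate 1) without single libraries. The wild-type efficiency of 0.33 was 0.44 with the other feature length. None of the called member values changed sign under the alternatives run.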
